A study of Homo sapiens with 4 samples.

Results

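The transcription factor ATF4 and 9 genes known as its targets were followed through RNA sequencing of HT29 and HCT116, 2 cell lines from human colorectal carcinoma that stand in for intestinal epithelium. The 10 genes were selected from 61544 rows of a count table, by gene symbol and with values of these same libraries already known, so their own values are given as a description with no test. There were 4 libraries, namely HT29 with 1 ug/mL LPS (the bacterial lipopolysaccharide) for 24 h, HT29 control, HCT116 with the same LPS treatment and HCT116 control. Both lines are long-cultured tumour cells, all 4 cultures grew in the same medium with serum and a glutamine supplement, and no agent other than LPS is named in the labels. The question behind the design was how the lines, which differ in their basal glucocorticoid receptor, respond to LPS. Each condition was 1 library, so no LPS effect within a line could be tested against replicates. The lines were compared within each treatment, and the 2 libraries of a line differ in treatment, so they are not replicate cultures.

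ATF4 is the main effector of the integrated stress response. When amino acids run short, or when unfolded proteins gather in the endoplasmic reticulum, kinases phosphorylate the translation factor eIF2, most translation slows, and ATF4 messenger RNA is translated more efficiently because of short upstream reading frames. The level of ATF4 mRNA therefore need not follow the level of the protein, which was not measured here. ATF4 protein then binds DNA with C/EBP-family partners and switches on genes for amino acid synthesis, uptake and recovery. Such genes are read as the output of the pathway.

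Binding of ATF4 with C/EBP partners is known at composite elements called CARE, here searched as TGATGNAA on both strands. RefSeq promoter windows of GRCh38.p14, which reach from 250 bases before a gene's start to 50 bases after it, were found for 9 of the 10 genes, at 14 start sites. The motif was present in windows of 2 genes, ASNS and CHAC1, while 1270 of 35116 windows of the same length over all genes (3.617%) held it. The sequences are shown because these are the 2 windows in which the letters of the ATF4 element could be read, each 5′ to 3′ on the gene's own strand and with the motif in capitals.
ASNS: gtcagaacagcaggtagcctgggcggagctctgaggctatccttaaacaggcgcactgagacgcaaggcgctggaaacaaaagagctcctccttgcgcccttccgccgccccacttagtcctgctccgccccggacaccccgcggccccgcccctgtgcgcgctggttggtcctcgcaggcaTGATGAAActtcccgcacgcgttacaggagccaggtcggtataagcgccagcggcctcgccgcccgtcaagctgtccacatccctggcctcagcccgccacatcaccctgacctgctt
CHAC1: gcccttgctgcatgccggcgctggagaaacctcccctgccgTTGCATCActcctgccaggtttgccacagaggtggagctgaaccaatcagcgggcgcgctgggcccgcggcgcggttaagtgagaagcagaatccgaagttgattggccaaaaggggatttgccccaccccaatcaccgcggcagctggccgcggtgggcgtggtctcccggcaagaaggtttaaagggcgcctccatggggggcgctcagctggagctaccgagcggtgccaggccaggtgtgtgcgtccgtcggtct
The ASNS window is chr7:97872359-97872658 on the minus strand, and its match TGATGAAA begins 68 bases before the start. The CHAC1 window is chr15:40953221-40953520 on the plus strand, and its match begins 209 bases before the start and lies on the opposite strand. A match of letters is a description of the sequence, and a window with no match says nothing about the factor.

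Total counts ran from 19105058 to 21268959, and mitochondrial genes took 4.29% and 3.75% of them in HT29 with LPS and HT29 control, against 7.16% and 5.01% in HCT116 with LPS and HCT116 control. The part of this difference in the values that follow was not tested. Of the epithelial markers EPCAM, CDH1, KRT8, KRT18 and KRT19 were abundant in both lines, whereas VIL1 had 3004 and 2637 counts in HT29 (LPS, control), against 0 and 4 in HCT116. CDX2 went the other way, with 39 and 18 counts in HT29, a log2 ratio of LPS over control of 0.91 (0.14 to 1.87), against 572 and 474 in HCT116. CDX1 had 17 and 3 counts in HT29 and 0 in HCT116, and KRT20, which has an identical copy on an alternate contig, had 0 counts in all 4 libraries. Of 11 markers of leukocytes, endothelium and fibroblasts, CD3E, COL1A2 and DCN were at 0 everywhere, while LYZ had 20709 and 18532 counts in HT29 and 0 in HCT116. CD14 had 137 and 140 counts in HT29, against 9 and 12 in HCT116, and COL1A1 went the other way, with 59 and 81 counts in HT29, against 1999 and 2225 in HCT116. The summed level of the list was 1055 and 1042 CPM in HT29 and 100 and 102 CPM in HCT116. CPM here means counts scaled to a common library size after TMM, a correction for differences in composition between libraries. In bulk RNA, fewer expressing cells and less RNA per cell cannot be told apart.

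Which reads reach a gene depends on its neighbours in the annotation. In GENCODE 44, 99.5% of the canonical ASNS transcript lies in exons that another gene on the same strand, ENSG00000284707, also claims, and that row of the table held 4, 2, 48 and 48 counts in HT29 with LPS, HT29 control, HCT116 with LPS and HCT116 control. How reads that fall in both genes were treated is not stated, so every ASNS value below may miss reads and is uncertain. DDIT3 shares 35.9% of its canonical transcript, mostly with MARS1 on the opposite strand, which held 4479, 3848, 4380 and 4935 counts in the same order, and without the strand setting the reads of such a pair cannot be told apart. For SLC7A11 and VLDLR the shared portions were 8.97% and 8.74%, and for the other 6 genes they were 0%.

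Per length of all annotated exons (RPKM), ATF4 had the highest level of the 10 genes and PSAT1 the next in all 4 libraries. Canonical transcripts can be much shorter, with 1866 against 9187 bases for PHGDH and 1419 against 2613 for ATF4. For PSAT1 both lengths were 2206 bases. The order of the genes therefore depends on the length used, while the comparison of 1 gene between libraries does not. ATF4 stood at 98.1 and 114 RPKM in HT29 with LPS and HT29 control, against 106 and 99.8 RPKM in HCT116 with LPS and HCT116 control. PSAT1 stood at 48.6 and 48.3 RPKM in HT29, against 51.2 and 50.8 RPKM in HCT116. By this measure the lines parted at the third place. It was held by TRIB3 in HT29, with 26.3 and 32.3 RPKM, and by PHGDH in HCT116, with 23.8 and 24.5 RPKM. SLC7A11 was the fourth in both HT29 libraries, but in HCT116 it had 4.61 and 5.20 RPKM and exchanged places with DDIT3 between LPS and control. ASNS and VLDLR were last in every library, at or below 1.78 RPKM, and they too exchanged places between LPS and control in HT29.

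**Figure D1:**
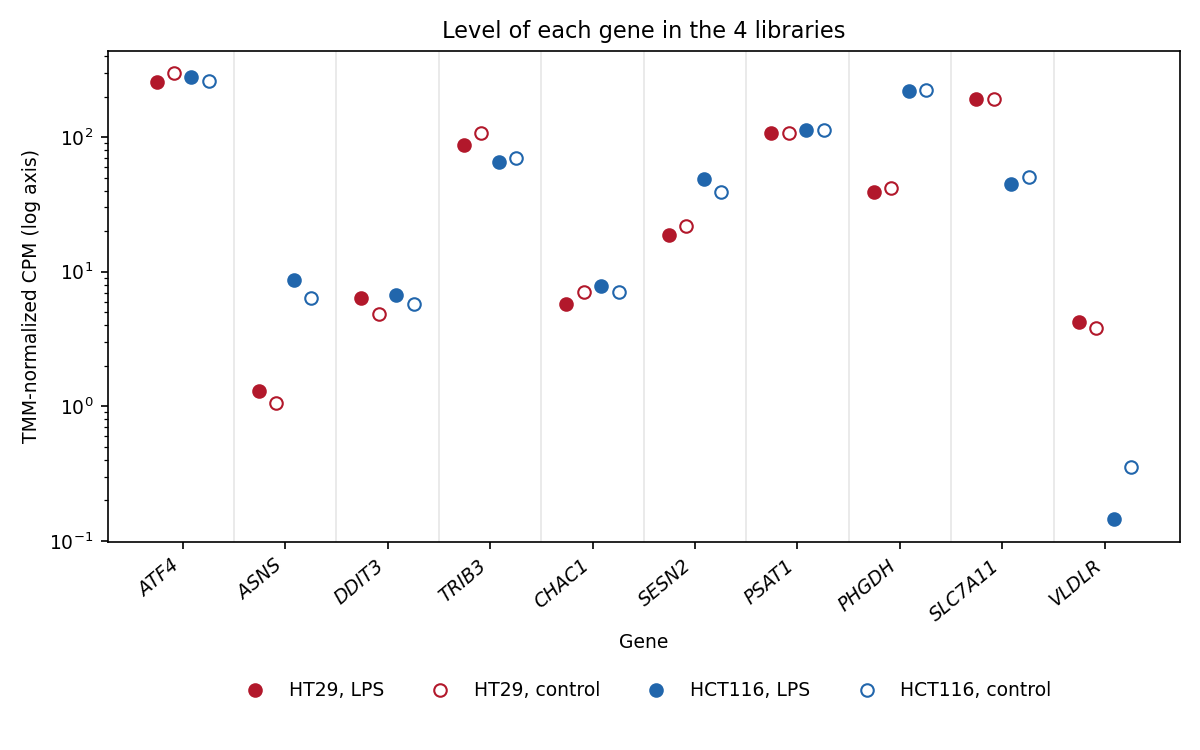
Level of the 10 genes in each library, as TMM-normalized CPM on a log axis, with 1 point per library, filled for LPS and open for control. ATF4 and PSAT1 lie at nearly the same height in both lines, SLC7A11 and VLDLR lie higher in HT29, and ASNS, SESN2 and PHGDH lie higher in HCT116.

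Measured log2 ratios of LPS over control were small for the members in both lines, except for VLDLR in HCT116, which had too few counts to tell. In HT29, 0 of 10 genes had a log2 ratio of LPS over control beyond 0.58 (a 1.49-fold difference) in either direction, where 6.2% of 13201 genes with at least 1 CPM did. In HCT116, 0 of the 9 genes with at least 1 CPM passed that size, where 5.9% of 14337 genes did. VLDLR was the gene left out in HCT116. With so small a share over all genes, a count of 0 does not set the members apart. The median log2 ratio of the members was −0.05 in HT29 and 0.09 in HCT116, beside −0.0076 and −0.0025 over all genes. Intervals given with ratios are 95% Clopper-Pearson intervals from the counts of a pair of libraries. They cover counting error only and hold no variation between cultures or library preparations. Sequenced PCR copies are not independent molecules, so the intervals may be too narrow even for counting error. The intervals of ASNS and DDIT3 in both lines reach past 0.58 in size, as do those of CHAC1 and VLDLR in HT29. A small difference is therefore not shown for these genes.

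ATF4 itself (ENSG00000128272, chr22:39519695-39522683) had 5087 counts with LPS and 5390 in the control in HT29, which is 256 against 299 CPM. In HCT116 it had 5741 and 5898 counts, or 277 against 261 CPM. The log2 ratio was −0.22 (−0.28 to −0.17) in HT29 and 0.09 (0.04 to 0.14) in HCT116. The sign thus differed between the lines, with both intervals clear of 0, although the ratios are small. Over genes with at least 20 CPM, the middle 90% of log2 ratios ran from −0.25 to 0.24 in HT29 and from −0.24 to 0.25 in HCT116, and both ATF4 values lie within those ranges.

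DDIT3 (CHOP; chr12:57516588-57521737), a C/EBP-family factor known for its part in cell death under lasting stress, had 126 counts with LPS and 87 in the control in HT29. The corresponding counts in HCT116 were 140 and 130. Its log2 ratio was 0.39 (−0.01 to 0.81) in HT29 and 0.23 (−0.12 to 0.59) in HCT116. Both values are above 0 and both intervals include 0. TRIB3 (chr20:362835-397559), a pseudokinase that is induced by ATF4 and DDIT3 and damps ATF4 activity, pointed the other way. It had 1721 and 1917 counts in HT29 (LPS, control), a log2 ratio of −0.29 (−0.39 to −0.20). In HCT116 it had 1342 and 1589 counts, a log2 ratio of −0.12 (−0.22 to −0.01). In HT29 the TRIB3 ratio lay below the middle 90% of genes with at least 20 CPM.

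CHAC1 (chr15:40952962-40956512), which degrades glutathione and whose promoter window carries the CARE letters shown above, had 115 and 128 counts in HT29 (LPS, control), against 161 and 161 in HCT116. The log2 ratios were −0.29 (−0.67 to 0.08) and 0.13 (−0.20 to 0.45), so the depth could not show a difference in either line. SESN2 (chr1:28259518-28282491), a leucine sensor that holds back mTORC1, had 370 and 391 counts in HT29, which is 18.6 against 21.7 CPM. In HCT116 SESN2 had 1009 and 890 counts, 48.7 against 39.3 CPM. Its log2 ratios were −0.22 (−0.43 to −0.01) in HT29 and 0.31 (0.18 to 0.44) in HCT116, opposite in sign as for ATF4, and the HCT116 value lay above the middle 90% of genes with at least 20 CPM.

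Of the enzymes of amino acid synthesis, PSAT1 and PHGDH differed little with LPS. PSAT1 (chr9:78297125-78330093), the aminotransferase of the serine pathway, had 107 and 107 CPM in HT29 (LPS, control) and 113 and 112 CPM in HCT116, with log2 ratios of 0.01 (−0.08 to 0.10) and 0.01 (−0.07 to 0.09). PHGDH (chr1:119648411-119744218), which catalyses the first step of that pathway, had 38.8 and 41.5 CPM in HT29 and 218 and 226 CPM in HCT116. Its log2 ratios were −0.10 (−0.24 to 0.05) and −0.05 (−0.10 to 0.01). For both enzymes the intervals keep any LPS difference in these libraries small. ASNS (chr7:97851677-97872542), asparagine synthetase and the other gene with the CARE letters, had 26 and 19 counts in HT29, against 180 and 144 in HCT116. Its log2 ratios were 0.29 (−0.60 to 1.25) and 0.44 (0.13 to 0.78), the second with an interval above 0 but on counts that the shared exons leave uncertain.

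SLC7A11 (chr4:138164097-138242349), the cystine importer of system xc- that supplies glutathione and is also a target of NRF2, had 193 and 192 CPM in HT29 (LPS, control), a log2 ratio of 0.01 (−0.06 to 0.07). In HCT116 it had 44.5 and 50.1 CPM, a log2 ratio of −0.17 (−0.30 to −0.05). VLDLR (chr9:2621182-2660056), a lipoprotein receptor that ATF4 induces under endoplasmic reticulum stress, had 84 and 69 counts in HT29, against 3 and 8 counts in HCT116. Its log2 ratio in HT29 was 0.14 (−0.33 to 0.63), and with so few counts the HCT116 ratio of −0.89 had an interval of −3.84 to 0.77. Counting the 10 genes by their intervals, 3 lay below 0 and 0 above in HT29 (ATF4, TRIB3, SESN2 below), and in HCT116 3 lay above 0 (ATF4, ASNS, SESN2) and 2 below (TRIB3, SLC7A11). The share of all genes with such intervals was not computed, so these counts do not set the members apart.

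**Figure D2:**
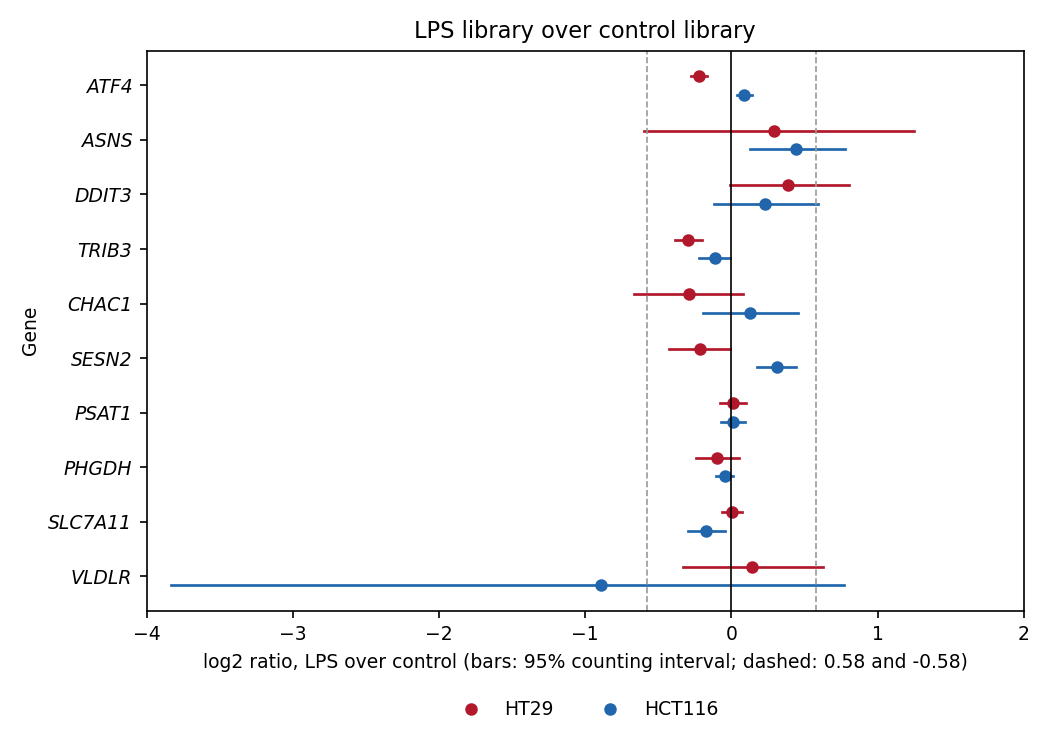
Log2 ratio of LPS over control for each gene in HT29 and in HCT116, after TMM scaling and with 2 counts added as a prior. Bars are 95% counting intervals and dashed lines mark 0.58 and −0.58. ATF4 and SESN2 lie below 0 in HT29 and above 0 in HCT116, and VLDLR in HCT116 rests on 3 and 8 counts.

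Between the lines the members separated far more than between treatments. Past 0.58 in both the LPS pair and the control pair, 2 of 10 genes (SLC7A11 and VLDLR) were higher in HT29, where 23.7% of 14516 genes were, and 3 (ASNS, SESN2 and PHGDH) were lower, where 28.7% were. The members' shares are near those of all genes, so a difference between the lines is not particular to them. Which genes stood on which side follows from the values below.

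SLC7A11 had 3834 and 3470 counts in HT29 (LPS, control), against 921 and 1134 in HCT116. The log2 ratio of HT29 over HCT116 was 2.12 (2.01 to 2.22) in the LPS libraries and 1.94 (1.84 to 2.04) in the control libraries, a 4.07-fold higher level on average. VLDLR, with 4.23 and 3.83 CPM in HT29 against 0.14 and 0.35 CPM in HCT116, had log2 ratios of 4.15 (3.27 to 7.17) and 3.12 (2.38 to 4.70). The HCT116 level is close to the limit of what the depth could count, so the size of the VLDLR difference is imprecise, and its direction is the same in both pairs.

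PHGDH stood on the HCT116 side. It had 771 and 749 counts in HT29 (LPS, control), against 4522 and 5101 in HCT116, which gives log2 ratios of −2.49 (−2.60 to −2.38) in the LPS libraries and −2.44 (−2.55 to −2.33) in the control libraries, or 0.18 of the HCT116 level. ASNS stood at 1.31 and 1.05 CPM in HT29 and 8.70 and 6.37 CPM in HCT116, with log2 ratios of −2.64 (−3.38 to −2.13) and −2.49 (−3.37 to −1.90). The row that shares the exons of ASNS was also lower in HT29, with 4 and 2 counts against 48 and 48. SESN2 had log2 ratios of −1.38 (−1.56 to −1.21) and −0.86 (−1.03 to −0.69), that is 0.46 of the HCT116 level on average.

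PSAT1, which acts directly after PHGDH in the serine pathway, did not follow it. Its log2 ratios were −0.08 (−0.16 to 0.01) and −0.07 (−0.16 to 0.01), within a range in which the lines can hardly be separated, while PHGDH differed more than any other member with at least 5 CPM. ATF4 had −0.11 (−0.17 to −0.06) in the LPS libraries and 0.20 (0.14 to 0.25) in the control libraries, so its order between the lines changed with treatment. DDIT3 had −0.09 and −0.25, and CHAC1 had −0.42 in the LPS libraries and nearly equal levels in the controls, at 7.10 CPM in HT29 and 7.12 CPM in HCT116. TRIB3 was the only member just beyond the size threshold in one pair alone, with 0.42 (0.32 to 0.52) in the LPS libraries and 0.60 (0.50 to 0.69) in the control libraries.

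**Figure D3:**
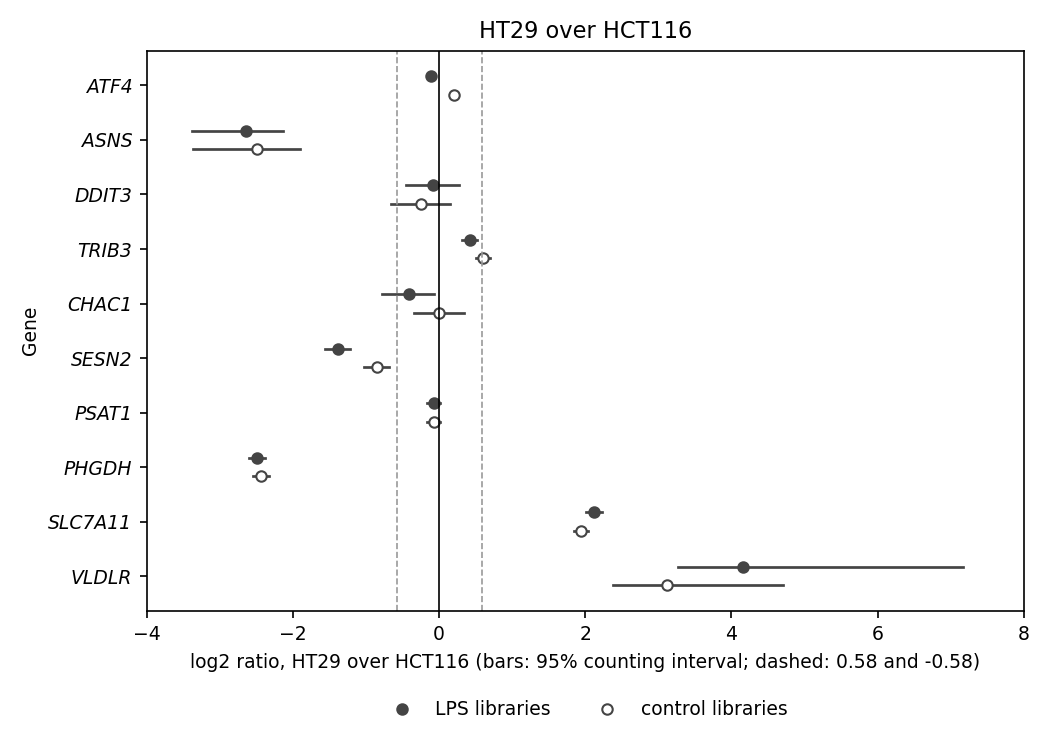
Log2 ratio of HT29 over HCT116 for each gene, in the LPS libraries and in the control libraries, with 95% counting intervals and dashed lines at 0.58 and −0.58. SLC7A11 and VLDLR lie on the HT29 side, ASNS, SESN2 and PHGDH on the HCT116 side, and ATF4 and PSAT1 near 0.

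To set the members beside the rest of their pathway, 8 further lists were read, namely the regulators of eIF2, the factors that act beside ATF4, enzymes of amino acid synthesis, amino acid transporters, aminoacyl-tRNA synthetases, stress effectors, endoplasmic reticulum chaperones and NRF2 targets. Of their 115 genes, 110 had at least 1 CPM on average, and the LPS ratios within a line that follow are for those with at least 1 CPM there. They were tested by quasi-likelihood in edgeR, adjusted after Benjamini and Hochberg over 14516 genes and with 1 residual degree of freedom, which leaves little to estimate the spread from. No list gene was called for LPS over both lines, with 0 higher and 0 lower (and 0 with DESeq2), where 0.124% of all genes were called higher and 0.0964% lower. At an unadjusted p under 0.05 in edgeR's test there were 8 of the 110 list genes, beside 1101 of all 14516 genes.

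List medians of the LPS log2 ratio lay between −0.09 and 0.07 in HT29 and between −0.06 and 0.06 in HCT116. In HT29, 45 of 108 list genes had a positive ratio, beside 6369 of 13201 over all genes. In HCT116 43 of 109 did, beside 7100 of 14337. The list gene beyond 0.58 was BATF2, a factor of the AP-1 family, with 70 and 93 counts in HT29 (LPS, control), against 82 and 53 in HCT116. Its log2 ratios were −0.54 in HT29 and 0.73 in HCT116. ATF5, which is translated under stress like ATF4, had 1771 and 2011 counts in HT29, a log2 ratio of −0.32 (−0.42 to −0.23), and in HCT116 0.08 (−0.04 to 0.20).

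Larger LPS ratios occurred in both directions, and the genes given here are examples, since other list genes had ratios of similar or greater size. CTH, an enzyme of amino acid synthesis, had 44 and 57 counts in HT29 (LPS, control), a log2 ratio of −0.49 (−1.11 to 0.08), and −0.03 in HCT116. ASS1, which makes argininosuccinate from citrulline, had 403 and 257 counts in HT29, a log2 ratio of 0.51 (0.28 to 0.74), and 0.10 in HCT116. The arginine importer SLC7A1 had 11593 and 8622 counts in HT29, a log2 ratio of 0.29 (0.25 to 0.33), and −0.01 in HCT116. The glycine transporter SLC6A9 had 371 and 281 counts in HCT116, a log2 ratio of 0.53 (0.30 to 0.76), and 0.32 in HT29.

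HT29 against HCT116, 45 list genes were higher (38% of all genes were called higher) and 42 were lower (38.6%), so here too the lists as a whole stand near the background. The lists divided differently. Of 16 stress effectors tested, 12 were lower and 3 higher in HT29, with a median log2 ratio of −1.05. Of 20 chaperones and sensors of the endoplasmic reticulum, 13 were higher and 3 lower, with a median of 0.57. The median over all genes was −0.02. Amino acid synthesis had 8 lower and 3 higher of 14, transport 7 higher and 4 lower of 12, and the factors beside ATF4 6 higher and 2 lower of 9. The eIF2 regulators (5 higher, 6 lower of 16), the synthetases (5 higher, 3 lower of 13) and the NRF2 targets (4 higher, 4 lower of 11) were mixed.

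ATF3, a stress-induced factor and known ATF4 target, had 41 and 41 counts in HT29 (LPS, control), against 351 and 367 in HCT116, a fitted log2 ratio of −2.93 (adjusted p = 1.48e-10 in edgeR's test). CTH, which makes cysteine by transsulfuration, had 44 and 57 counts in HT29, against 224 and 250 in HCT116, a log2 ratio of −2.04 (adjusted p = 2.24e-07). GADD45B, a growth-arrest gene, had 24 and 16 counts in HT29, against 272 and 229 in HCT116, a log2 ratio of −3.47 (adjusted p = 5.04e-10). These 3 genes were all lower in HT29 libraries than in both HCT116 libraries.

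On the HT29 side, SLC7A1 had a fitted log2 ratio of 2.16 (adjusted p = 1.03e-15 in edgeR's test) and the leucine-type transporter SLC43A1 2.20 (adjusted p = 4.24e-10). XBP1, the factor of the unfolded protein response that is activated by splicing, had 6550 and 6219 counts in HT29 (LPS, control), against 1592 and 1926 in HCT116, a log2 ratio of 2.06 (adjusted p = 3.32e-16). The disulfide isomerase PDIA6 was 1.87 higher on that scale (adjusted p = 9.02e-15). PDIA6 shares 45.3% of its canonical transcript with exons on the opposite strand, so without the strand setting its counts are uncertain.

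STC2 and TXNIP, the most extreme list genes, were nearly absent from one line. STC2, a secreted stress-induced glycoprotein, had 2 and 0 counts in HT29 (LPS, control), against 1073 and 1103 in HCT116. In the control libraries it was at least 293-fold lower in HT29, taking a floor of 3 counts per library, and in the LPS libraries the log2 ratio was −8.03 (−12.05 to −7.15). TXNIP, an arrestin that restrains glucose uptake and thioredoxin, had 755 and 529 counts in HT29, against 1 and 1 in HCT116, with log2 ratios of 8.02 (7.14 to 14.93) in the LPS libraries and 7.69 (6.89 to 14.68) in the control libraries. HMOX1, a heme-degrading NRF2 target, was present in both lines and differed less. It had 258 and 268 counts in HT29, against 929 and 1097 in HCT116, a fitted log2 ratio of −1.75 (adjusted p = 3.58e-11 in edgeR's test).

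**Figure D4:**
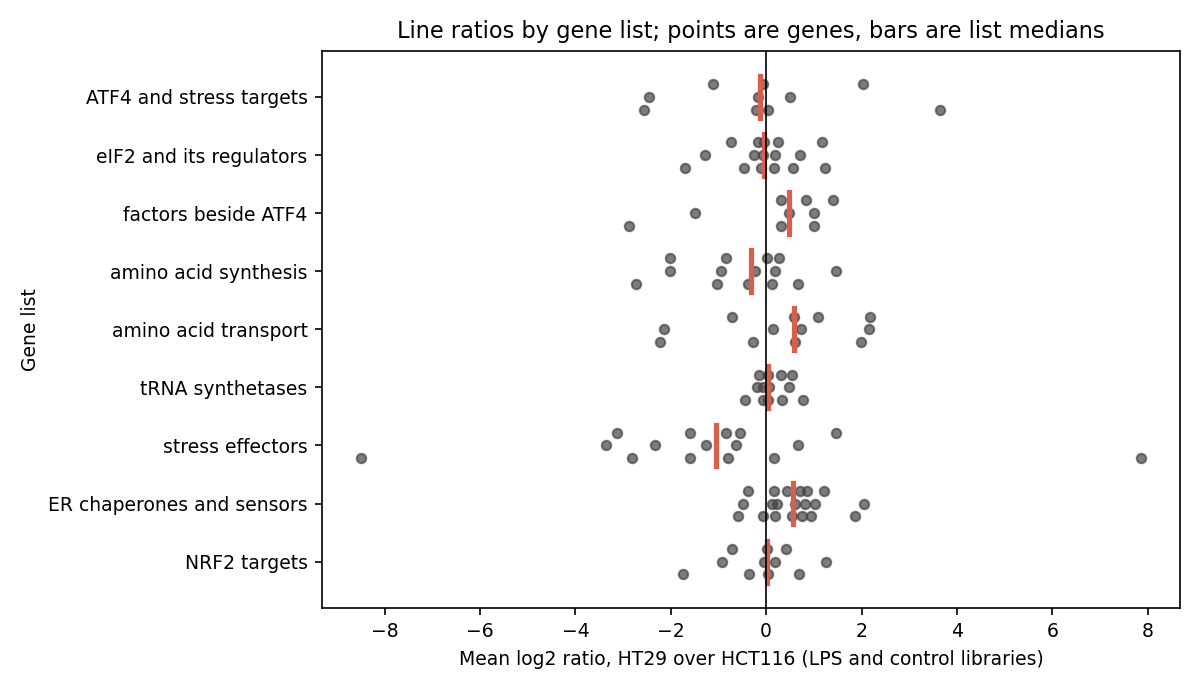
Mean log2 ratio of HT29 over HCT116 for every gene of the members and the 8 further lists with at least 1 CPM on average, 1 point per gene with the list's median as a line. Stress effectors have a median of −1.05 and chaperones of 0.57, beside −0.12 for the members.

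Of genes outside the members with at least 5 CPM, those whose profile over the 4 libraries lay nearest to ATF4 were MRPL27, ERAL1, CCDC43, KIAA1191 and ZNF74, at distances of 0.0084 to 0.0447 between centred log2 CPM. ATF4 itself spans 0.22 on that scale. For PHGDH, which spans 2.54 and has the widest range of the members with at least 5 CPM, the nearest were DMTN, LRFN3, BTN2A2, PDLIM2 and MSLN, at distances of 0.0646 to 0.105. These genes were picked from 11290 candidates over 4 libraries, and likeness at that size is a description.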

How the data were processed

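The authors deposited 1 table of raw counts per gene for the 4 libraries, with the exonic length of each gene. Per the paper and the submitters' notes, reads were trimmed (cutadapt 1.9, Trimmomatic 0.39), aligned to hg38 with HISAT2 2.1.0 and counted with featureCounts 2.0.1. The strand, overlap and multi-mapping settings and the GENCODE release were not stated. Deposited lengths equal GENCODE 44 exon lengths for 57782 of 61399 genes that had a symbol. Columns named NC were read as the control of their line.

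Log2 ratios were taken from CPM after TMM scaling, with 2 counts added as a prior (R 4.3.3, edgeR 4.0.16, limma 3.58.1), and intervals were computed from the counts without a prior. Tables were handled in python 3.11.15 (statsmodels 0.14.6). Other lists were tested with edgeR's quasi-likelihood fit, with line or LPS as a block, at an adjusted p of 0.05 over the genes whose mean reached 1 CPM. DESeq2 1.42.0 was an alternative. The fit was tested on simulated data. RPKM used the deposited lengths. Each transcript was aligned to the genome with minimap2 2.31, and no member had a copy with at least 98% identity over 50% of its length. Below that cut, the best other match covered 100% of ATF4 at 96.8% identity, 99.1% of PSAT1 at 94.9% and 96.1% of ASNS at 92.8%. Without the multi-mapping setting, the effect of such matches on the counts is unknown.

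The members and lists were chosen with earlier results of these data known. All 10 members were named, and of each list the 3 genes with the largest LPS ratio and the 3 with the largest line ratio were eligible, at a mean of at least 5 CPM. Of the eligible list genes, 1 is not reported here by name. BATF2 is named because it alone passed 0.58. Nothing says that libraries came from separate cultures. Alternatives were another scaling, library size alone, prior counts of 0.5 and 5, no or a 5 CPM filter, a size threshold of 1, removal of length and GC trends, DESeq2 and no block.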

Additional observations from a re-analysis of the deposited data

Results flagged for a closer look

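For 2 of the 10 members the LPS ratio had opposite signs in the lines, with both counting intervals clear of 0. The share of all genes with that pattern was not computed. The difference of the log2 ratios, HT29 minus HCT116, was −0.311 for ATF4 and −0.526 for SESN2. With 1 library per condition no residual degree of freedom is left for such a difference, so it was not tested, and the intervals cover counting error only.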

How the results depend on the processing

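Over 40 member ratios and 5 settings, 179 values were compared: 168 moved by less than their counting error and 11 moved further. The LPS ratio of PSAT1 in HCT116, at 0.01, took the other sign under library size alone, at −0.01, with an interval that includes 0. Of the 11, 10 were line ratios under library size alone, which shifts the median of all genes by −0.132 in the LPS pair and −0.171 in the control pair, and relative to that shift they stand as before. The control-pair ratio of ATF4 was 0.02 there. The other was ATF4 in HCT116 with length and GC trends removed, at 0.03. With no filter on low counts 1 member lay below −0.58 with LPS in HCT116 (VLDLR), and with a minimum of 5 CPM 1 member was above 0.58 in HT29 over HCT116. Leaving out ASNS and DDIT3, chosen after the data were seen, gave 2 above and 2 below. List genes called between lines ran from 40 to 48 higher and from 38 to 42 lower over the alternatives, the lowest without 13 genes that have a copy or share exons, also chosen after the data were seen. For LPS 0 list genes were called in each alternative, while calls over all genes were 32, against 14 with DESeq2's size factors, 81 with DESeq2 (9569 adjusted p-values not given), 103 with no filter, 136 with a minimum of 5 CPM and 0 with no block. Pairing in these tests was by cell line for LPS and by treatment for the lines, and no block on replicate numbers could be fitted, since each condition had 1 library. Counts under about 30, as for ASNS in HT29 and VLDLR in HCT116, limit what these depths can show.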

Other observations

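Genes within 1 Mb of a member did not follow its difference between the lines in a common way. Around PHGDH, at a mean log2 ratio of −2.46, 11 neighbours with at least 1 CPM had a median of 0.68, and around ASNS, at −2.57, 9 neighbours had a median of 0.36. Around SLC7A11, at 2.03, 3 neighbours had a median of 0.73, and around VLDLR, at 3.64, 3 neighbours had a median of 1.31. Around ATF4, at 0.04, 31 neighbours had a median of −1.12. These are values with no test.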
